A study of Mus musculus with 12 samples.

Results

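The 9 genes described here are Fgf5, Otx2, Pou3f1, T, Mixl1, Evx1, Gsc, Zic2 and Lef1, a group known for activity in the primed epiblast and the early mesoderm. They were chosen by name, with earlier results of these data known, and their probes were found on the array through RefSeq accessions. Each had 1 probe, printed as 1 spot. The tests covered 29839 genes, and 8 of the 9 were among them. Gsc was left out, since no group had it well above background on each of its arrays. Across the 5 knockdowns (KDs), Otx2 in Chd4 KD was the only tested member called against EGFP KD, at a 3.58-fold higher signal.

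The cells were E14 mouse embryonic stem (ES) cells, a pluripotent line grown on gelatin in serum and LIF with no feeder layer. Each dish was transiently transfected with esiRNAs, pools of short interfering RNAs, and RNA was taken 48 hr later, so every array averages the cells of a dish. In such bulk samples, fewer cells of a type and less RNA per cell cannot be told apart. The 6 groups are named by the targeted gene: EGFP, the control, or Dnmt1, Tet1, Mbd3, Mbd2 or Chd4, with 2 arrays in each, which the study's methods call biological replicates. Dnmt1 maintains CpG methylation, Tet1 oxidises methylated cytosine, and Mbd3 and Mbd2 are alternative subunits of the NuRD complex, whose remodelling ATPase is Chd4.

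The 12 one-colour arrays lay on 3 slides, and between 76.9% and 95.2% of probes passed the scanner's test of being well above background. Precision is limited by the small number of arrays. On the log2 scale the targeted gene fell by 2.96 in Mbd3 KD and by 1.28 in Chd4 KD against EGFP KD, both past the limma threshold (adjusted p = 0.0040 and 0.042). Dnmt1 differed by -1.99 in Dnmt1 KD without passing (adjusted p = 0.37). Relative to the EGFP KD mean, Tet1 stood at -0.02 in the array labelled Tet1 KD replicate 1 but at -1.79 in the one labelled Mbd2 KD replicate 1. The dimmer of the probes for Mbd2 stood at -1.75 in the former and -0.24 in the latter, while the brighter, which enters the tests, differed by -0.08 in Mbd2 KD (adjusted p = 1.0). Both arrays therefore go against their labels, and values given below for Tet1 KD and Mbd2 KD are those of the arrays so labelled. On Tet1 KD replicate 2, Tet1 stood at -1.81. On Mbd2 KD replicate 2, the dimmer Mbd2 probe stood at -1.77 and the brighter at -0.07, so the brighter probe did not follow the dimmer. Of 8 ES cell markers, 7 were well above background on all 12 arrays. The exception was Nanog, whose probe passed on 10 arrays.

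ES cells in LIF resemble the naive epiblast of the blastocyst. On release from this state they pass to the primed epiblast, where Fgf5, Otx2, Pou3f1 and Zic2 are active, and then, under Nodal and Wnt signals, to the primitive streak, where T, Mixl1, Evx1 and Gsc mark the first mesoderm and endoderm precursors. Lef1 is a nuclear partner of beta-catenin and also a target of the canonical Wnt pathway.

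Promoter sequences (250 bases before to 50 after an annotated start) were taken from RefSeq on build GRCm38.p6. They covered 6 of the members, at 12 starts. CpG pairs, the substrate of Dnmt1 and Tet1, were counted in each window as the letters CG. The most upstream starts are shown for Otx2, the member that was called, and for Lef1, which was lowest on both Mbd3 KD arrays, and the T window because T was well above background in a single group. Each CpG is in capitals.
Otx2 promoter, chr14:48667595-48667894, minus strand: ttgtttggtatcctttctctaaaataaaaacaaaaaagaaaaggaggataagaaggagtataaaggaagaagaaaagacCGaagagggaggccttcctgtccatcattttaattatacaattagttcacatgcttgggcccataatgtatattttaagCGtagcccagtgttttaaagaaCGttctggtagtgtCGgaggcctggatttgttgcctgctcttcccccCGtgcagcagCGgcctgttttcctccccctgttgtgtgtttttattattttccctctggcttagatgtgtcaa
Lef1 promoter, chr3:131110047-131110346, plus strand: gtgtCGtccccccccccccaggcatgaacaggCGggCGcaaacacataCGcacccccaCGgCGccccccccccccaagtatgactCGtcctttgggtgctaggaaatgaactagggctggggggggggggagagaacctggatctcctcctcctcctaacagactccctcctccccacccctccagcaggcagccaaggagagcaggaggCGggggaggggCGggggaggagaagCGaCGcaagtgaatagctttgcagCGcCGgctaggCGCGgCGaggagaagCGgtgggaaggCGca
T promoter, chr17:8434173-8434472, plus strand: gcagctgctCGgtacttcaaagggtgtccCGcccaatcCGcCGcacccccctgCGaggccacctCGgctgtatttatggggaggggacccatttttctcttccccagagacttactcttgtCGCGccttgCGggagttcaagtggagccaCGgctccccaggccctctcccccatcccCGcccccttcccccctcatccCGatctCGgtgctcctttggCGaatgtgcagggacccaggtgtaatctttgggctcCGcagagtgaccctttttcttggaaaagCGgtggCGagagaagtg

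The Otx2 window held 6 CpG pairs, the Lef1 window 18 and the T window 17. Of 32851 promoter windows, 56.4% held at least 6, 29.7% at least 18 and 31.4% at least 17. The members ranged from 5 pairs at the most downstream Lef1 start to 29 at Fgf5, with a median of 14, against a median of 7 over all windows. The counts describe sequence alone, since methylation was not analysed here.

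**Figure D1:**
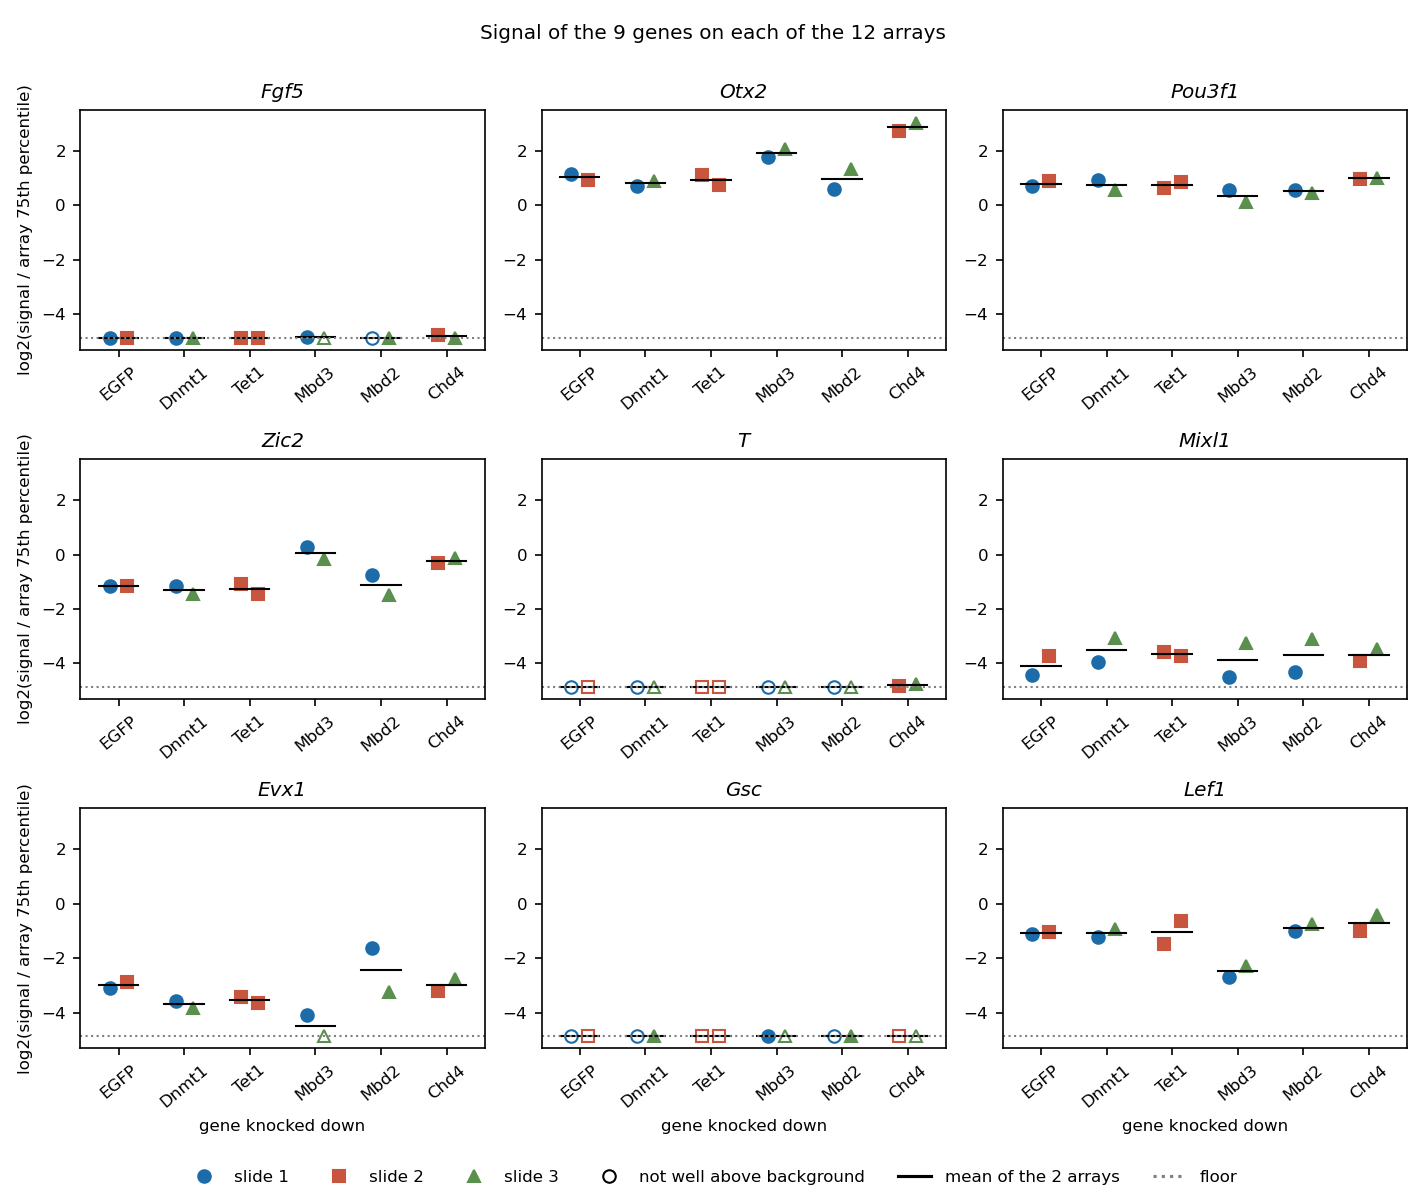
Signal of the 9 genes, as log2 of the processed signal over the array's 75th percentile, on each array by the gene knocked down. Symbols give the slide, open symbols an array where the probe was not well above background, bars the mean of 2 arrays and the dotted line the floor of -4.86. Otx2 stood highest on both Chd4 KD arrays, Lef1 lowest on both Mbd3 KD arrays, and Fgf5, T and Gsc lay at or near the floor.

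Otx2, a homeodomain factor that directs the exit from naive pluripotency and later forms the forebrain, rose in Chd4 KD. Its probe (chromosome 14, gene at 48656781 to 48667644) was well above background on all 12 arrays. The log2 signal relative to the array's 75th percentile was 1.14 and 0.94 on the EGFP KD arrays, and 2.74 and 3.01 on the Chd4 KD arrays. Mbd3 KD gave 1.76 and 2.07, Dnmt1 KD 0.70 and 0.91, Tet1 KD 1.11 and 0.75, and Mbd2 KD 0.61 and 1.33. Both Chd4 KD arrays were thus above the other 10, and both Mbd3 KD arrays were above all but those of Chd4 KD.

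The fitted rise of Otx2 in Chd4 KD was 1.84 ± 0.26 (SE) on the log2 scale, a 3.58-fold difference with 2 arrays per group (limma, adjusted p = 0.013). It made 1 of 8 tested members called, where 3.19% of all genes were called in that comparison. Otx2 in Chd4 KD was also above Dnmt1 KD (2.07 ± 0.26, adjusted p = 0.011), Tet1 KD (1.95 ± 0.26, adjusted p = 0.012) and Mbd2 KD (1.91 ± 0.26, adjusted p = 0.012), comparisons in which 2.65%, 2.83% and 3.11% of all genes were called. These comparisons were added after seeing the data and use the same Chd4 KD arrays, so they are no independent support. Tet1 KD and Mbd2 KD also each hold an array that goes against its label. In Mbd3 KD Otx2 was 0.88 ± 0.26 above EGFP KD, a value that missed the threshold (adjusted p = 0.27), and Chd4 KD exceeded Mbd3 KD by 0.96 ± 0.26 (adjusted p = 0.19). In order, the group means fell from 2.88 in Chd4 KD and 1.92 in Mbd3 KD to 1.04 in EGFP KD, 0.97 in Mbd2 KD, 0.93 in Tet1 KD and 0.80 in Dnmt1 KD, and no neighbouring pair for which a test was run passed the threshold.

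The Otx2 call rested on all 4 arrays of its comparison. Leaving out EGFP KD replicate 1, EGFP KD replicate 2, Chd4 KD replicate 1 or Chd4 KD replicate 2 gave adjusted p = 0.072, 0.084, 0.057 and 0.10, with log2 differences from 1.71 to 1.97. The call was also lost with normexp background correction (1.71, adjusted p = 0.059) and with only these 4 arrays in the fit (1.84, adjusted p = 0.17). On slide 2, the only one that held both groups, the difference was 1.80.

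Cell type markers moved in the same comparison. Of 7 tested primitive endoderm markers Afp rose (2.26 log2, adjusted p = 0.0048), of 5 tested fibroblast markers Col1a1 (2.49, adjusted p = 0.0020) and Thy1 (1.42, adjusted p = 0.0020) rose, and of 8 trophectoderm markers Tfap2c rose (1.05, adjusted p = 0.0066). Afp was at the floor on EGFP KD replicate 1 and at -4.39 on replicate 2, so the size of its rise depends on the floor. Of the 7 primitive endoderm markers, 5 had a difference above 0, and the lowest was -0.41. Of the 8 trophectoderm markers, 6 had a difference above 0, and the lowest was -0.69. Both groups shared a single slide, and the part of the slide in these counts was not tested. The log2 of the summed signal of the primitive endoderm markers was 0.53 to 0.91 in Chd4 KD and -0.0046 to 0.79 in EGFP KD, of the fibroblast markers 3.28 to 3.61 and 2.24 to 2.49, and of the trophectoderm markers 3.19 to 3.20 and 2.11 to 2.41. Of the other fibroblast collagens, Col3a1 differed by -0.74 ± 0.67 (adjusted p = 0.84) and Col1a2 by -0.02 ± 0.23 in Chd4 KD. Thy1 alone had a log2 signal of 3.31 and 3.01 and Tfap2c of 3.03 and 3.05 on the Chd4 KD arrays, so the summed signals of these lists are mostly those of 1 gene each. Ttr and Postn were not well above background on any array. No neural marker of 6 and no ES cell marker of 8 was called. In Mbd3 KD, Thy1 (1.28, adjusted p = 0.011) and Tfap2c (0.80, adjusted p = 0.044) rose, with summed signals of 3.26 to 3.32 for the fibroblast and 2.89 to 3.08 for the trophectoderm markers. Only 3 of the 8 trophectoderm markers had a difference above 0 in Mbd3 KD, with a median of -0.21 and a lowest value of -1.05. Gata3, of the trophectoderm list, was called in the lower direction in Mbd3 KD. It was at the floor on both Mbd3 KD arrays and at -3.87 and -4.12 in EGFP KD, so the size of its difference is not given. The part of these markers' cells in the values of Otx2, Zic2 and Lef1 was not tested.

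**Figure D2:**
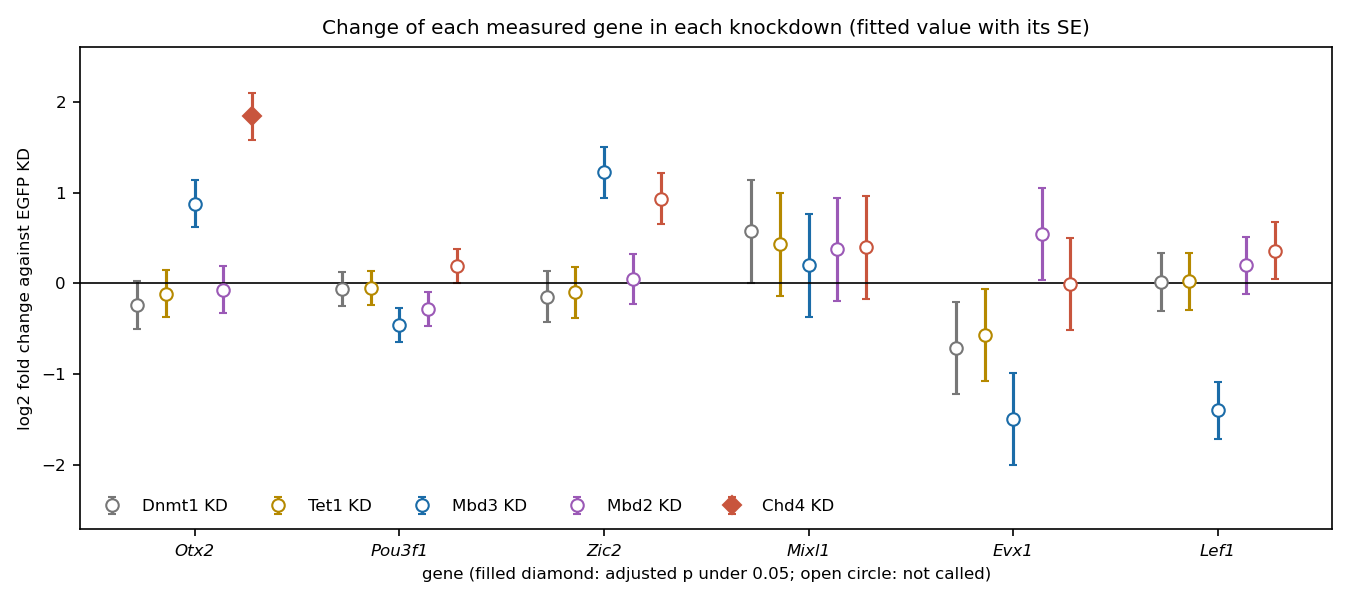
Fitted log2 fold change against EGFP KD, with its SE, of the 6 members measured above the floor in most groups, by KD. The filled diamond marks the single value past an adjusted p of 0.05, Otx2 in Chd4 KD at 1.84, and Zic2 and Lef1 in Mbd3 KD stood at 1.22 and -1.39 as open circles.

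Zic2, a zinc finger factor of the primed epiblast and neural plate, was brighter in both NuRD subunit KDs without being called. Its log2 signal was -1.17 and -1.16 in EGFP KD, 0.29 and -0.18 in Mbd3 KD, and -0.33 and -0.14 in Chd4 KD. Dnmt1 KD gave -1.15 and -1.47, Tet1 KD -1.09 and -1.44, and Mbd2 KD -0.74 and -1.48. The 4 arrays of Mbd3 KD and Chd4 KD were the highest 4 of the 12. The difference from EGFP KD was 1.22 ± 0.28 in Mbd3 KD (limma, adjusted p = 0.14) and 0.93 ± 0.28 in Chd4 KD (adjusted p = 0.17). Within slides it was 1.46 for Mbd3 KD and 0.83 for Chd4 KD. Mbd3 KD and Chd4 KD overlapped in Zic2, with a difference of -0.29 ± 0.28 (adjusted p = 0.92) that was 0.04 within slide 3.

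Lef1 was dimmest in Mbd3 KD, without being called against EGFP KD. The log2 signal of Lef1 was -1.12 and -1.04 in EGFP KD, -2.68 and -2.27 in Mbd3 KD, and -1.01 and -0.43 in Chd4 KD. Dnmt1 KD gave -1.21 and -0.91, Tet1 KD -1.47 and -0.64, and Mbd2 KD -1.0 and -0.76. Both Mbd3 KD arrays lay under the other 10. The difference from EGFP KD was -1.39 ± 0.32 in Mbd3 KD, a 2.63-fold lower signal that missed the threshold (limma, adjusted p = 0.14), and -1.56 within slide 1. In Chd4 KD it was 0.36 ± 0.32 above EGFP KD (adjusted p = 0.83), and 0.03 within slide 2.

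The direct comparison of both NuRD KDs put Lef1 1.75 ± 0.32 higher in Chd4 KD than in Mbd3 KD, which narrowly missed the threshold (limma, adjusted p = 0.054), and 1.84 higher within slide 3. Of the 8 tested members 0 were called there, where 1.45% of all genes were called, and 4 had an unadjusted p under 0.05 (Otx2, Pou3f1, Evx1 and Lef1), where 10.1% of all genes did. In 4 members (Otx2, Pou3f1, Evx1 and Lef1) both Chd4 KD arrays lay above both Mbd3 KD arrays, against 17.9% of all genes, and in 0 below, against 14%. T, which passed the background filter through Chd4 KD alone, is left out of this count, and Evx1 was at the floor on 1 of the Mbd3 KD arrays. Without Tet1 KD replicate 1, or without Tet1 KD replicate 2, which enter only through the shared estimate of the spread, Lef1 was called (adjusted p = 0.046 in both), and without the 2 arrays that go against their labels it was not (adjusted p = 0.10). Against Dnmt1 KD, Mbd3 KD differed by -1.41 ± 0.32 in Lef1 (adjusted p = 0.15), 1.36 ± 0.28 in Zic2 (adjusted p = 0.11) and 1.11 ± 0.26 in Otx2 (adjusted p = 0.17). None of the 8 was called in that comparison, where 0.660% of all genes were, and these 3 had an unadjusted p under 0.05, against 7.88%. Otx2 and Zic2 lay above both Dnmt1 KD arrays, against 8.52% of all genes, and Evx1 and Lef1 below, against 12.4%.

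**Figure D3:**
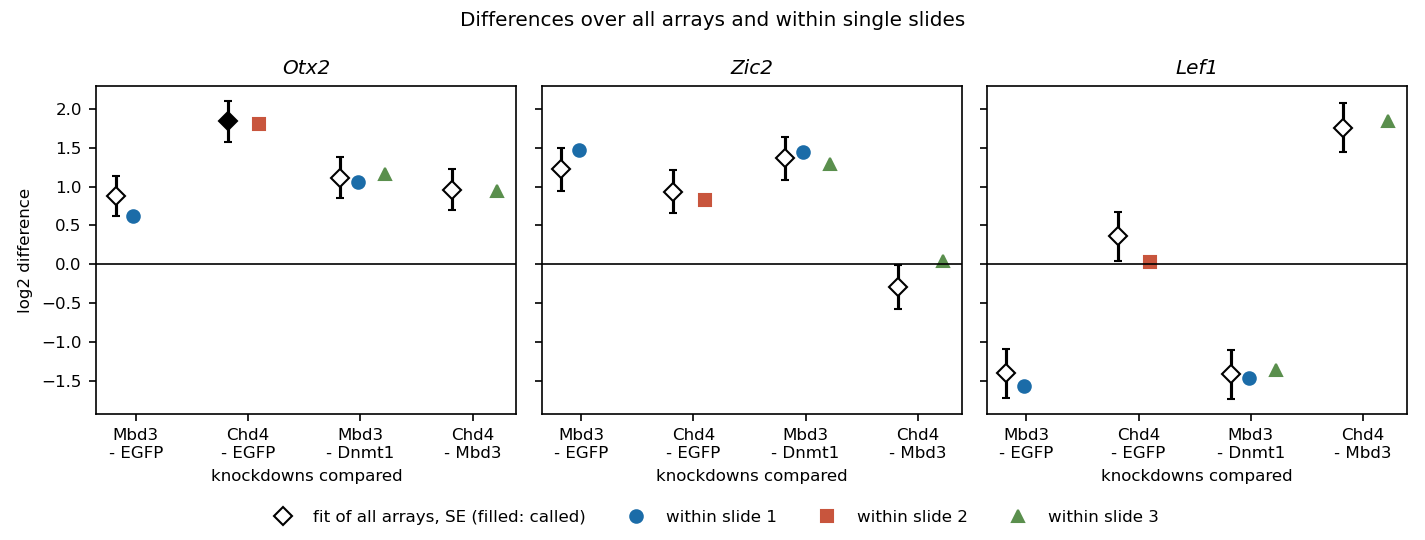
Log2 differences of Otx2, Zic2 and Lef1 in 4 comparisons, over all arrays with the SE (diamonds, filled where called) and within each slide that held both groups (coloured symbols). Each difference larger than 0.8 in size over all arrays had the same direction within every slide that held both groups, and Lef1 lay at -1.39 in Mbd3 KD against 1.75 for Chd4 KD over Mbd3 KD.

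Pou3f1, a POU domain factor of the primed epiblast also known as Oct6, was well above background on every array and was called in no comparison. It was 0.70 and 0.89 in EGFP KD, 0.56 and 0.12 in Mbd3 KD, and 0.95 and 1.02 in Chd4 KD. The Mbd3 KD arrays lay under both EGFP KD arrays by -0.46 ± 0.19 (limma, adjusted p = 0.49), and those of Chd4 KD lay above by 0.19 ± 0.19 (adjusted p = 0.85). Without Mbd3 KD replicate 2 the former was -0.24 and without replicate 1 it was -0.68, and the latter was 0.10 without EGFP KD replicate 1 and 0.28 without EGFP KD replicate 2. Within slides the differences were -0.15 and 0.07. Over all 12 arrays its log2 signal spanned 0.90, the narrowest range among the members that stayed above the floor.

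Fgf5, the growth factor that is the standard marker of the primed epiblast, gave a processed intensity between 36.4 and 84.5 units. It was well above background on 10 arrays, yet lay at the floor on 10. T, the T-box factor Brachyury that defines nascent mesoderm, was well above background on the 2 Chd4 KD arrays alone, with an intensity of 67.9 and 90.3. On the other 10 arrays T ranged from -1.6 to 32.9 and was not well above background. With EGFP KD set to a detection bound, T was 2.24-fold higher in Chd4 KD, the group through which alone it passed the background filter. Its fitted difference on the floored scale was 0.06, or 1.04-fold, and was not called (limma, adjusted p = 0.88). The bound is the EGFP KD mean of the higher of the probe's own signal and the lowest signal well above background on each array. It is not a limit for every probe, since Gsc at 72.1 on EGFP KD replicate 1 was not well above background. The 2.24 is therefore no minimum. Gsc, a homeobox gene of the organizer, was well above background on 3 arrays and ranged from 15.7 to 75.8.

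Mixl1, a homeobox gene of mesendoderm, was well above background on all 12 arrays at a low signal and was not called in any KD. Its log2 signal was -4.42 and -3.74 in EGFP KD and -4.50 and -3.26 in Mbd3 KD, so the replicates of these groups lay further apart than their means. On slide 1 it lay between -4.50 and -3.96, on slide 2 between -3.91 and -3.57, and on slide 3 between -3.45 and -3.06, with no overlap between slides. The difference from EGFP KD was between 0.20 and 0.57 with an SE of 0.57 in all 5 KDs. Within slides it was -0.08 in Mbd3 KD and -0.17 in Chd4 KD, while the arrays of the Dnmt1, Tet1 and Mbd2 KDs gave 0.46, 0.09 and 0.12 in that order.

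Evx1, a homeobox gene of the posterior streak, was -3.09 and -2.88 in EGFP KD, and -4.09 and at the floor in Mbd3 KD. Its probe was not well above background on Mbd3 KD replicate 2, the array at the floor. The difference was -1.49 ± 0.51 (limma, adjusted p = 0.36), a size that depends on the floor, with -1.99 at a lower floor and -1.11 without that array. Its highest signal, -1.64, came from the array labelled Mbd2 KD replicate 1, while Mbd2 KD replicate 2 gave -3.25. Chd4 KD, at -3.22 and -2.76, overlapped EGFP KD.

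Over the 8 tested members, Mbd3 KD gave 0 calls in limma, where 0.764% of all genes were called, and 5 with an unadjusted p under 0.05, where 9.66% of all genes did. These 5 were Otx2 and Zic2, both higher, and Pou3f1, Evx1 and Lef1, lower. In each of them the 2 Mbd3 KD arrays lay outside both EGFP KD arrays, which held in the higher direction for 13.1% of all genes and in the lower for 16.9%. In Chd4 KD, 2 members (Otx2 and Zic2) had an unadjusted p under 0.05, against 12.8% of all genes. There 4 members lay above both EGFP KD arrays (Otx2, Zic2, Pou3f1 and Lef1), against 19.0%, and 0 below, against 18.8%. T is left out of this count, since it passed the background filter through the Chd4 KD arrays alone. The median log2 difference over the 8 members was 0.27 in Chd4 KD and 0.01 in Mbd3 KD, beside 0.00 and -0.03 over all genes. The 8 include T and Fgf5, which lay at or near the floor. On slide 2, the only one with both EGFP KD and Chd4 KD, Otx2 differed by 1.80 and Zic2 by 0.83. Pou3f1 differed by 0.07, Lef1 by 0.03, Mixl1 by -0.17 and Evx1 by -0.34 there.

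Dnmt1 KD, Tet1 KD and Mbd2 KD each gave 0 calls among the members and 0% over all genes. None of the 8 reached an unadjusted p under 0.05 in these KDs, where 4.73%, 2.85% and 2.08% of all genes did. In Dnmt1 KD, 0 members lay above both EGFP KD arrays (10.6% of all genes) and 2 below, Otx2 and Evx1 (10.4%). In Tet1 KD it was 1 above, Mixl1 (23.2%), and 1 below, Evx1 (12%), and in Mbd2 KD 1 above, Lef1 (10.5%), and 1 below, Pou3f1 (12.4%). All 5 comparisons share the EGFP KD arrays. Leaving out both arrays that go against their labels kept the Otx2 call in Chd4 KD (adjusted p = 0.024) and added none.

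Other genes of the same states were read from lists of known genes. Of 19 formative and primed epiblast genes, all tested, 1 rose in Chd4 KD and 0 in Mbd3 KD. The gene that rose was Krt18, an epithelial keratin (1.18 ± 0.18, adjusted p = 0.020). Foxd3, which guards pluripotency, differed by -1.35 ± 0.31 in Chd4 KD (adjusted p = 0.083) and by -1.30 ± 0.31 in Mbd3 KD (adjusted p = 0.17). Sall2 differed by -1.62 ± 0.44 in Mbd3 KD (adjusted p = 0.22). The medians of the list were -0.22 in Chd4 KD and -0.05 in Mbd3 KD.

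Of 22 tested genes of the primitive streak and early mesoderm, 1 fell in Mbd3 KD and 1 in Chd4 KD, and 0 rose. Both calls were Sp5, a zinc finger gene that is a direct Wnt target. The log2 difference of Sp5 was -1.52 ± 0.13 in Mbd3 KD (limma, adjusted p = 0.0095) and -0.98 ± 0.13 in Chd4 KD (adjusted p = 0.0093). In signal it stood at -1.24 and -1.37 in EGFP KD, -2.88 and -2.78 in Mbd3 KD, and -2.26 and -2.32 in Chd4 KD. Fgf17, a streak growth factor, differed by -1.33 ± 0.36 in Chd4 KD (adjusted p = 0.12). Msgn1 differed by 1.18 ± 0.46 in Chd4 KD (adjusted p = 0.33), with EGFP KD arrays at -3.0 and -1.67. Of the 22 genes, 17 had a difference above 0 in Chd4 KD, with a list median of 0.30. In Mbd3 KD the median was -0.23. EGFP KD lay on slides 1 and 2, Chd4 KD on slides 2 and 3, and Mbd3 KD on slides 1 and 3. The count and both medians therefore mix slides with groups, and the part of the slide in them was not tested. Snai1, a repressor of epithelial genes in the streak, was higher in Chd4 KD than in Mbd3 KD (1.21 ± 0.17, adjusted p = 0.024).

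Of 17 tested canonical Wnt target and feedback genes, Sp5 was also the only gene called against EGFP KD. Axin2, the standard feedback target, differed by -0.76 ± 0.41 in Mbd3 KD (adjusted p = 0.68), with -3.42 and -2.84 in EGFP KD and -3.45 and -4.34 in Mbd3 KD. Lgr5 differed by 1.39 ± 0.63 in Mbd3 KD (adjusted p = 0.57), and was at the floor on EGFP KD replicate 1. Lef1 and T belong to this list too. Its median was -0.12 in Mbd3 KD and 0.06 in Chd4 KD.

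Of 18 tested paralogues of the members, 0 were called in either KD. Zic5, which lies near Zic2 on chromosome 14, differed by 0.89 ± 0.32 in Mbd3 KD (adjusted p = 0.40) and by 0.92 ± 0.32 in Chd4 KD (adjusted p = 0.26). Zic1 differed by 0.93 ± 0.29 in Mbd3 KD (adjusted p = 0.30). Tcf7, a paralogue of Lef1, differed by 0.75 ± 0.38 between Chd4 KD and Mbd3 KD (adjusted p = 0.63).

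Of 15 naive pluripotency genes, 0 were called against EGFP KD. Nanog is among them and lay near the floor, so its lack of a call says little. Nr0b1, a nuclear receptor of the naive network, differed by -1.16 ± 0.24 in Chd4 KD (adjusted p = 0.054), and Dppa3 by -0.99 ± 0.16 in Mbd3 KD (adjusted p = 0.058). Dppa3 was higher in Chd4 KD than in Mbd3 KD (1.03 ± 0.16, adjusted p = 0.036).

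**Figure D4:**
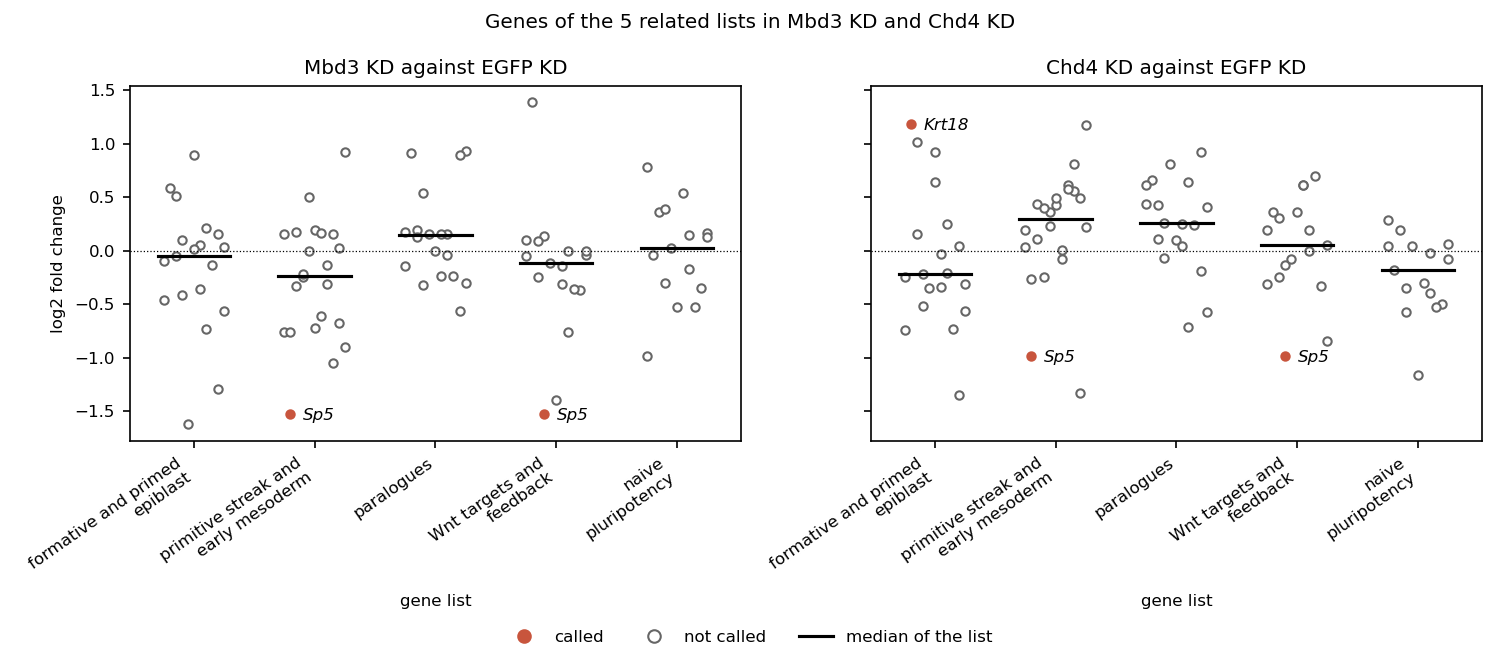
Log2 fold changes against EGFP KD of the genes in 5 related lists, in Mbd3 KD and in Chd4 KD, with called genes filled and named and the median of each list as a bar. Sp5 was called in both KDs and stands in 2 lists, Krt18 was called in Chd4 KD, and the other genes were not called.

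The genes whose log2 signal followed a member most closely over the 12 arrays were taken from 15639 genes well above background throughout. Otx2 was followed by Krt19 (Pearson r = 0.98) and Rhox10 (r = 0.97), Zic2 by Adgrg1 (r = 0.94) and Ccnjl (r = 0.93), and Lef1 by Rasgrp1 (r = 0.94) and Aga (r = 0.93). Pou3f1 was followed by Cul4a (r = 0.93) and Zc2hc1c (r = 0.91), and Mixl1 by Olfr774 (r = 0.99) and Wnt8b (r = 0.99). Among the members, Otx2 and Zic2 had r = 0.72, Pou3f1 and Lef1 r = 0.59, and Zic2 and Lef1 r = -0.58. These values describe arrays that share groups and slides, and carry no test.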

How the data were processed

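Each group of E14 ES cells was measured on 2 one-colour Agilent 4x44K arrays. The authors deposited Feature Extraction (10.7.1.1) scanner files, whose processed intensity had its background removed and carries no scaling across arrays. They also deposited a table on a log2 scale relative to EGFP KD. Against own log2 differences its columns had slopes of 0.0573 to 0.0960 and medians of -0.0062 to 0.0037, so its scale is not settled and it served for calls only.

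Each array's intensity was divided by its 75th percentile and set to at least 0.0344 (log2 -4.86), and log2 was taken. Of 39429 probes, 36113 passed as well above background throughout at least 1 group. Accessions were named through a GRCm38.p6 gene table (71.3% of spots), and the brightest probe stood for a gene. limma 3.58.1 in R 4.3.3 fitted 6 groups over 12 arrays, with calls at a Benjamini-Hochberg adjusted p under 0.05 over 29839 genes. Steps were tested on simulated data. Named genes were the members, the targeted genes, listed genes that were called or had large differences (up to 4 per list), and the 2 genes closest to each member. Members and lists were chosen with earlier results of these data known. Slides were read from the files. Comparisons of Chd4 KD with Dnmt1 KD, Tet1 KD and Mbd2 KD were added after seeing the data.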

Additional observations from a re-analysis of the deposited data

How the results depend on the processing

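The number of members called moved from 1 to 0 in Chd4 KD with normexp background correction and with only the 4 arrays of the comparison, and to 2 with a lower floor (Otx2 and T). With only the 4 arrays, 0 genes were called in any comparison. Leaving out single arrays gave 0 to 1 members in Chd4 KD, and 0 to 1 in Chd4 KD against Mbd3 KD. In the latter, 1 was called with probes well above background on all arrays (Lef1) and with the lower floor (T). T entered these counts only because it passed the background filter through Chd4 KD. The authors' table gave 3 members in Mbd3 KD, 3 in Chd4 KD, 2 in Chd4 KD against Mbd3 KD and 2 in Mbd3 KD against Dnmt1 KD, in a test against 0 that leaves out the spread of the EGFP KD arrays. That table tested 4 members and 7425 genes, so its counts are not out of the same total. Over all genes, Chd4 KD gave 952 calls, 64 with normexp, 537 with the lower floor, 509 without the 2 arrays in doubt, 318 to 858 without single arrays and 4213 in the authors' table. Mbd3 KD gave 228, and 2, 47, 0, 28 to 123 and 3412 in turn. Other settings gave Mbd3 KD 56 to 276. Chd4 KD against Mbd3 KD gave 433, with 126 without the 2 arrays in doubt, 13 with normexp and 1222 in the authors' table. Mbd3 KD against Dnmt1 KD gave 197, with 0, 2 and 711 in turn. Dnmt1 KD, Tet1 KD and Mbd2 KD gave 0, with at most 39, 32 and 48 without single arrays and 1066, 56 and 30 in the authors' table. The setting without those arrays was chosen after seeing the data. The cause of these shifts was not tested.

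Deviations of same-numbered arrays correlated between -0.042 and 0.77 over pairs of groups. They were 0.64 to 0.77 among Dnmt1 KD, Mbd3 KD and Mbd2 KD, whose same-numbered arrays share a slide, and -0.042 to 0.14 for pairs with Tet1 KD, so the number was not taken as a pairing of all groups. With the replicate number as a block, 1 member, Lef1, was called in Mbd3 KD, in Chd4 KD against Mbd3 KD and in Mbd3 KD against Dnmt1 KD (adjusted p = 0.038, 0.012 and 0.041). With the slide as a block Lef1 was called in none of these comparisons, and the Otx2 call in Chd4 KD stood at 1.66 (adjusted p = 0.020).

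Of 635 alternative values of 24 member fold changes larger than their SE, 4 turned direction, with turns within single slides left out. Within slide 3, Zic2 in Chd4 KD against Mbd3 KD also turned, from -0.29 over all arrays to 0.04. Mixl1 in Dnmt1 KD was -0.64 with normexp, and Evx1 in Mbd2 KD was -0.56 with normexp and -0.27 without the 2 arrays in doubt, with a range of -0.27 to 1.34 when single arrays were left out. Each member has 1 probe on 2 arrays per group. Gsc was not well above background on 9 arrays, and Fgf5 passed on 10 but lay at the floor on 10, so no difference was given for either.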
